A study of Danio rerio with 3 samples.

Results

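Cytosolic ribosomal proteins form the protein part of the ribosomes that translate nuclear messenger RNAs, and their genes were followed here across single cells at the time when blood arises from aortic endothelium. The members are the gene symbols that begin with rpl, rps or rplp and a digit, without the rps6k kinases. They number 80 of the 19831 genes in the count table. Grouped by symbol alone, 43 count as large subunit (rpl), 33 as small subunit (rps) and 4 as stalk (rplp). The small-subunit group includes rps19bp1, which names a protein that binds Rps19. The cells came from the trunk of zebrafish at 36 hours post fertilization and carried GFP, driven through Gal4 and UAS by spi2, together with mCherry driven by kdrl. DP cells were sorted one by one as positive for both reporters and sequenced by STRT-seq, a plate-based method. Each reporter reads a promoter's activity, and the labels give neither the number of embryos nor whether DP 1 and DP 2 came from separate ones. The p-values therefore measure only how differences between groups of cells vary between these libraries, with the libraries' own difference taken out as a block.

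Ribosomal protein genes belong to the most abundant transcripts of a cell and are translated in step with growth through a shared motif at the start of their messages. Each ribosome holds 1 copy of most of these proteins, and partly assembled subunits are degraded. Loss of a single copy of several of them causes Diamond-Blackfan anemia in humans, a failure of red cell production, and free Rpl5 and Rpl11 restrain Mdm2 and so stabilize p53. Some genes have a paralogue, and in zebrafish Rpl22 and its paralogue Rpl22l1 have opposing roles in the emergence of blood stem cells.

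The cells analysed had at least 500 detected genes, 53 of DP 1 and 35 of DP 2, with 15439 to 903548 counts per DP 1 cell (median 134394) and 4818 to 379006 per DP 2 cell (median 58292). A cell was called cdh5+ or npsn+ where cdh5, the gene of VE-cadherin in endothelial junctions, or npsn, a neutrophil protease gene, reached 50 CPM, counts scaled to each cell's total, and the other did not. It was called myb+ where myb, the gene of a transcription factor of blood stem and progenitor cells, reached 50 CPM and the other 2 did not, and "none" where all 3 were below. Cells called cdh5+ or npsn+ could therefore hold myb as well. The cdh5+ cells held myb at 528, 126, 168 and 713 CPM in DP 1 and at 0, 0 and 181 CPM in DP 2. In npsn+ cells myb ran from 0 to 1328 CPM. Comparisons with myb+ cells thus do not set cells without myb against cells with it. DP 1 held 4 cdh5+, 14 npsn+, 5 none and 30 myb+ cells. DP 2 held 3 cdh5+, 7 npsn+, 5 none and 19 myb+ cells, and 1 more with both cdh5 and npsn that was left out. The states are names for these genes only, and 14 of the 21 npsn+ cells held npsn at 50.2 to 274 CPM, while the other 7 held it at 1521 to 8159 CPM. In shallow cells the threshold rests on very few counts, as in DP 1 cell sc08, with npsn at 54.1 CPM in a total of 18469 counts.

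Other markers were read beside the states. The 19 endothelial markers other than cdh5 summed to 1763 CPM in DP 1 and 2057 CPM in DP 2 in cdh5+ cells, with 17 of 19 found in each, against 223 and 616 CPM in myb+ cells. The 11 neutrophil markers other than npsn summed to 24762 and 18561 CPM in npsn+ cells, with all 11 found, against 1623 and 1528 CPM in myb+ cells. A few cells carried these sums: the median npsn+ cell held 1659 CPM in DP 1 and 2022 CPM in DP 2, against 790 and 607 CPM for the median myb+ cell. The 7 blood stem and progenitor markers other than myb summed to 1909 and 795 CPM in cdh5+ cells, to 342 and 411 CPM in npsn+ cells and to 510 and 642 CPM in myb+ cells. Only 2 of 5 macrophage markers were found, and they were at 0 in both libraries in cdh5+, none and myb+ cells. Epidermal markers did not exceed 88.1 CPM in any sum, and erythroid markers summed to between 26.4 and 661 CPM. The 6 skeletal muscle markers differed by library, with 4.55 to 17.7 CPM in the sums of DP 1 and 188 to 257 CPM in those of DP 2.

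Nearly every cell transcribed nearly the whole set. Of the 80 members, 72 were found in every one of the 88 cells and 76 in 80 or more, and a single cell held between 75 and 80 of them. The highest 3 were ranked by summed counts, which are not corrected for gene length: rplp1, a protein of the stalk that recruits elongation factors, had 123738 counts or 3.06% of all ribosomal protein counts. The gene rpl39, whose small protein lines the exit tunnel, had 123275 (3.05%), and rps2, near the decoding site, had 120948 (2.99%). At the other end, rpl26 had 136 counts in 21 cells and rpl9 had 369 in 66 cells, of which 97 came from 1 cdh5+ cell of DP 1. Whether counts this low reflect the transcript levels of rpl26 and rpl9 was not tested. The symbol rps19bp1 meets the rule but names a protein that binds Rps19, and had 1315 counts in 53 cells. The paralogues rps27l (3211 counts, 69 cells), rpl7l1 (4829, 81 cells) and rpl22l1 (7548, 88 cells) were low as well. Large-subunit genes took 52.6 to 55.0% of ribosomal protein counts, small-subunit genes 37.1 to 39.9% and stalk genes 6.49 to 8.29% over the 8 sums of a state and library.

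Ribosomal protein transcripts took between 8.13 and 38.1% of a cell's counts in DP 1 (median 30.3%) and between 9.90 and 46.5% in DP 2 (median 39.0%), so the share was compared within each library. In DP 1, the 4 cdh5+ cells stood at 12.4, 21.0, 31.9 and 33.9% (median 26.4%), and myb+ cells ran from 8.13 to 37.3% (median 30.9%). In DP 2, the 3 cdh5+ cells stood at 35.5, 37.4 and 41.3% (median 37.4%), and myb+ cells ran from 9.90 to 46.5% (median 40.0%). All 7 cdh5+ cells lay inside the range of the myb+ cells of their own library. The difference of the medians, cdh5+ minus myb+, was -4.44 percentage points in DP 1 and -2.61 in DP 2, or -3.52 ± 1.296 (SD, n = 2 libraries). The mean was -8.06 where any count set the state, which left 1 cdh5+ cell in DP 1, and -6.92 with states set on counts thinned to one depth.

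In npsn+ cells the median share was 25.8% in DP 1 (range 10.9 to 38.1%) and 36.0% in DP 2 (range 14.4 to 44.8%). The difference from myb+ cells was -5.11 percentage points in DP 1 and -3.95 in DP 2, or -4.53 ± 0.81 (SD, n = 2 libraries). When any count of npsn made a cell npsn+, the mean difference turned to 0.95, and with states set on thinned counts it was -3.74. With npsn at 1000 CPM or more, a threshold chosen after the data were seen, it was -7.31. That stricter state held 5 DP 1 cells with a median of 28.8%, a difference of -2.02, and 2 DP 2 cells at 19.5 and 35.3%, a difference of -12.6. The 9 DP 1 cells it left out had a median of 17.1% and a median total of 36907 counts, against 324048 counts for the 5 it kept. The 5 cells left out of DP 2 had a median of 36.8% and a median total of 47974 counts, against 76633.5 counts for the 2 kept. Cells with none of the 3 genes stood at 14.3, 19.2, 25.3, 27.5 and 31.3% in DP 1 and at 21.5, 38.1, 43.2, 45.2 and 46.0% in DP 2. Their median differed from that of myb+ cells by -5.60 points in DP 1 and by 3.18 in DP 2, opposite ways, for a mean of -1.21 ± 6.21 (SD, n = 2 libraries). With states set on thinned counts the differences were 0.39 and 0.31. With 2 libraries no permutation test of these differences can pass, so none is given.

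**Figure D1:**
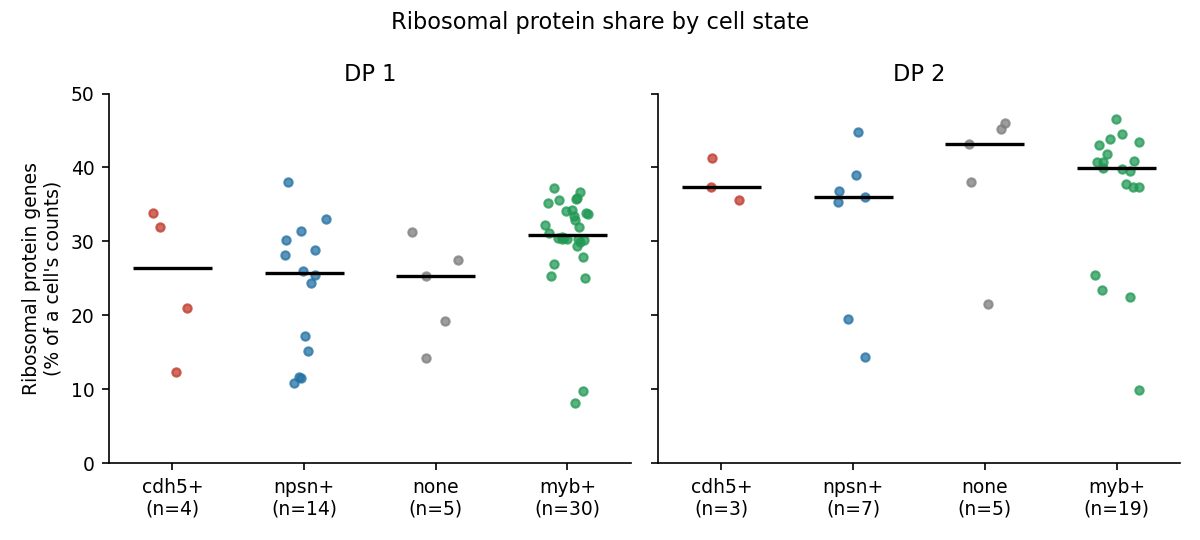
Share of each cell's counts in ribosomal protein genes (vertical axis, percent) for cdh5+, npsn+, none and myb+ cells of DP 1 (left) and DP 2 (right). Points are cells and lines are medians. The states overlap in both libraries, and DP 2 (median 39.0% over all cells) sits above DP 1 (median 30.3%).

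The spread between cells went with the mitochondrial share. Mitochondrially encoded genes took a median of 7.17% of counts in DP 1 and 6.06% in DP 2 in cdh5+ cells, 11.1 and 10.4% in npsn+ cells, 13.4 and 5.69% in none cells and 5.27 and 4.78% in myb+ cells. Over cells, ribosomal protein and mitochondrial shares had a Spearman coefficient of -0.59 in DP 1 (53 cells) and -0.76 in DP 2 (35 cells). Both shares have the same denominator, and the coefficient was -0.47 and -0.66 when mitochondrial counts were left out of it. In 14 cells the ribosomal protein share was under 20%: 10 of DP 1, with mitochondrial shares of 12.4 to 32.2% and a median of 32506 counts, and 4 of DP 2, with 21.7 to 52.2% and a median of 7902.5 counts. They comprised 1 cdh5+, 5 npsn+, 2 none and 2 myb+ cells in DP 1, and 2 npsn+, 1 myb+ and the 1 cell with both genes in DP 2. The share also went with the total count of a cell (Spearman 0.51 in DP 1 and 0.53 in DP 2). With mitochondrial counts left out, the npsn+ minus myb+ difference was -5.39 points in DP 1 and -1.82 in DP 2, or -3.60 in the mean. The part of depth and mitochondrial content in the differences between states was not tested further.

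**Figure D2:**
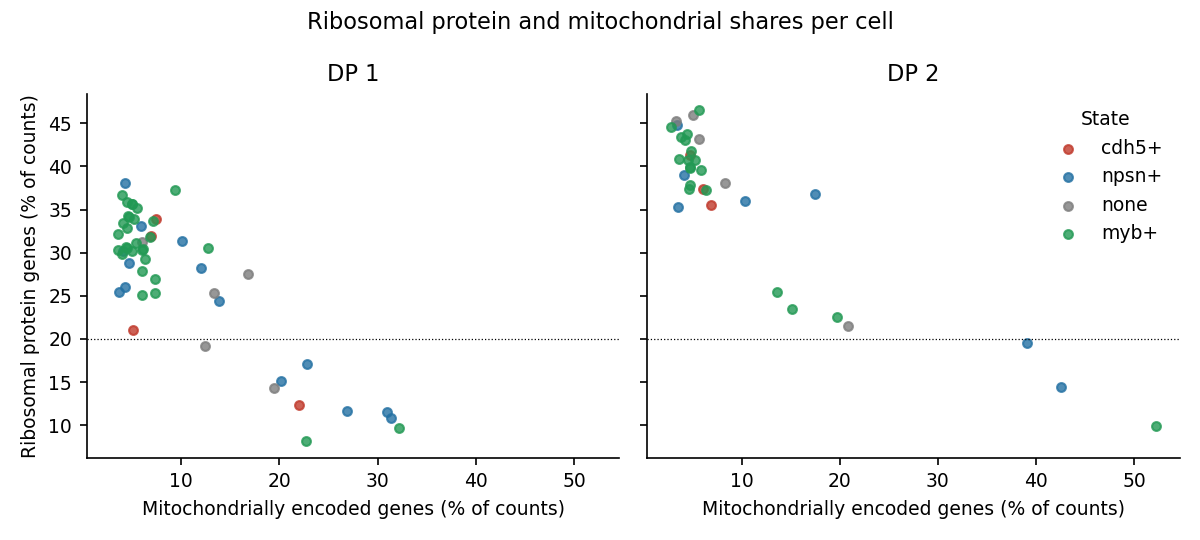
Ribosomal protein share (vertical axis, percent of counts) against the share of mitochondrially encoded genes (horizontal axis, percent of counts) per cell in DP 1 (left) and DP 2 (right), coloured by state. Apart from the single DP 2 cell with both cdh5 and npsn, which is not drawn, the cells under the dotted line at 20% have mitochondrial shares from 12.4% upwards, and they include npsn+ and myb+ cells of both libraries.

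Which single members differed between states was tested on counts summed per library and state with edgeR's quasi-likelihood test, library as a block and Benjamini-Hochberg adjustment over all 5829 genes tested. The filter on low counts kept 79 members and left out rpl26. In cdh5+ cells 7 of the 79 members fell relative to myb+ cells (8.86%), 6 of the large and 1 of the small subunit, and 0 rose, against 0.583% of all genes tested called lower, 0.12% called higher and 0.703% called in either direction. At an unadjusted p under 0.05 there were 46 of 79 members, all lower in cdh5+ cells, beside 440 of all 5829 genes tested in either direction. These shares were not matched for count level, and the part of the members' high counts in them was not tested. Fitted log2 fold changes were negative for 75 of 79 members, with a median of -0.49 and a middle range of -0.59 to -0.35. The median of all genes tested was -0.42, a difference of -0.07 that turned to 0.57 with no filter on low counts and to 0.21 without the deepest cell of each sum. With DESeq2 size factors in place of TMM scaling these medians were -0.16 for the members and -0.08 for all genes, and 0 members were called.

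The exit tunnel gene rpl39 had 6396 CPM in cdh5+ cells against 9994 CPM in myb+ cells of DP 1, and 10711 against 12723 CPM in DP 2. Its level was thus lower in cdh5+ sums of both libraries, with log2 CPM differences of -0.64 in DP 1 and -0.25 in DP 2. The fit, which uses TMM scaling, gave a lower value than either, a log2 fold change of -0.72 ± 0.15 (SE) with adjusted p = 0.00118 (edgeR). With DESeq2 size factors the value was -0.39. The small-subunit gene rps7, one of the Diamond-Blackfan anemia genes, had 5386 against 7470 CPM in DP 1 and 7217 against 9639 CPM in DP 2 (cdh5+ against myb+). Its log2 fold change was -0.72 ± 0.17, with adjusted p = 0.0066 in the edgeR test. The anemia gene rpl35a had 2748 CPM in cdh5+ and 4749 CPM in myb+ cells of DP 1, and 4500 and 5194 CPM in DP 2. It showed the lowest fitted value of the 7, -0.78 ± 0.21 (edgeR, adjusted p = 0.0302), and stood at -0.44 with DESeq2 size factors.

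Further large-subunit genes fell. The gene rpl3, whose protein reaches towards the peptidyl transferase centre, had 5273 against 7186 CPM in DP 1 and 6917 against 8741 CPM in DP 2, cdh5+ against myb+, and a log2 fold change of -0.67 ± 0.17 (edgeR, adjusted p = 0.0257). Beside it stood rpl6 at -0.71 ± 0.19 (0.0280) and rpl19 at -0.65 ± 0.17 (0.0240), with adjusted p from edgeR in parentheses. All 7 were lower in the cdh5+ sum of each library. With DESeq2 size factors rpl3 was at -0.33, rpl6 at -0.37 and rpl19 at -0.32.

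The calls depended on the settings. No member was called without the library block, in sums thinned to one depth, without the deepest cell of each sum, with DESeq2, or with npsn+ set at 1000 CPM. With no filter on low counts 29 of 80 were called, all lower, beside 62 of all 15257 genes tested, 59 of them lower. The deepest cell gave 44.3% of the cdh5+ counts in DP 1 and 60.0% in DP 2, and cdh5+ held 4 and 3 cells. Heat shock and immediate early genes, read as signs of handling, summed to 10969 CPM in DP 1 and 13523 CPM in DP 2 in cdh5+ cells, to 2262 and 5557 CPM in npsn+ cells and to 4034 and 11373 CPM in myb+ cells, and their part in the results was not tested.

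The libraries gave the course of the whole set separately. In DP 1, the log2 difference in CPM, cdh5+ minus myb+, had a median of -0.31 and was below 0 for 70 of 79 members with a value. In DP 2 its median was -0.08, with 53 of 80 members below 0. Both libraries gave a lower cdh5+ level for 50 members and a higher one for 6.

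**Figure D3:**
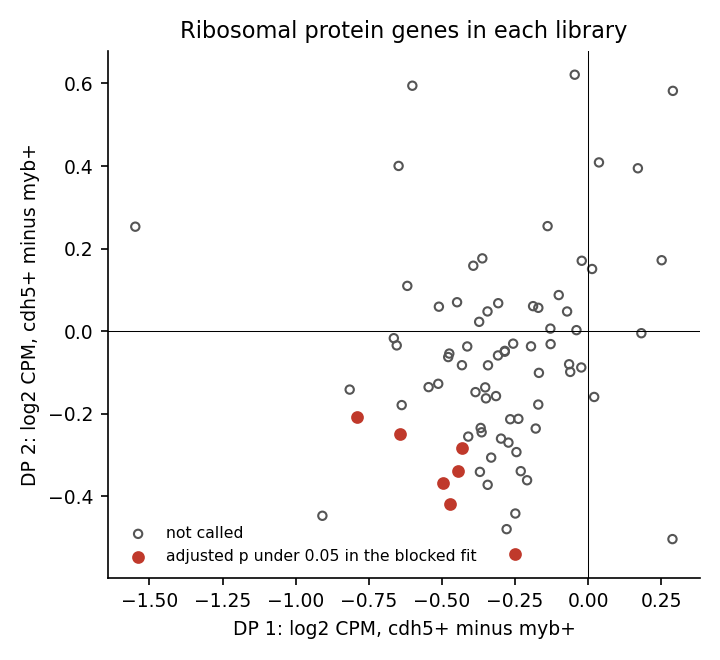
Difference in log2 CPM, cdh5+ minus myb+, of each ribosomal protein gene in DP 1 (horizontal axis) and DP 2 (vertical axis). Filled points are the 7 genes called in the blocked edgeR fit, all of them lower in cdh5+ sums of both libraries, and 78 of the 80 genes fall inside the axes.

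The members with the highest fitted values in cdh5+ cells were not called against myb+ cells. That comparison tests a change from myb+ cells, not a departure from the common course of the members. The large-subunit gene rpl9 had 162 CPM in cdh5+ against 16.7 CPM in myb+ cells of DP 1 and 62.6 against 16.5 CPM in DP 2, a log2 fold change of 2.47 ± 1.54 (edgeR, adjusted p = 0.766). In DP 1, 97 of the 107 cdh5+ counts of rpl9 lay in 1 cell. The gene rpl5a, which encodes an Mdm2-binding protein, was at 0.16 ± 0.34, and the large-subunit gene rpl14 at 0.02 ± 0.28. Lowest were rpl22l1 at -0.95 ± 0.44, rpl7l1 at -0.82 ± 0.59 and rpl35a, which alone of these 3 was called against myb+ cells. Fitted against the summed ribosomal protein counts instead, rpl9 was at 2.95 ± 1.49, rpl5a at 0.65 ± 0.33 and rpl14 at 0.52 ± 0.28. In that fit rpl35a was at -0.28 ± 0.19, and none of these genes was called.

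In npsn+ cells ribosomal protein genes were not called in either direction. Of 79 members 0 passed, and 0 had an unadjusted p under 0.05. Of all 5829 genes tested, edgeR called 0.635%, and 171 had an unadjusted p under 0.05. DESeq2 called 0 as well. The median fitted change of the members was -0.02, against -0.18 for all genes, with a middle range of -0.07 to 0.06. The difference of these medians, 0.17, turned to -0.31 where any count set the state and to -0.019 in thinned sums. With DESeq2 size factors the member median was 0.11 and that of all genes -0.06, so the sign of the member median depends on the scaling. Per library, the members' median log2 difference in CPM, npsn+ minus myb+, was -0.12 in DP 1 and -0.17 in DP 2. With npsn at 1000 CPM or more, 0 of 80 members were called by edgeR (1 at unadjusted p under 0.05) beside 1.36% of all genes (328 of 5735 at unadjusted p under 0.05).

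The outliers of the npsn+ comparison were low-count paralogues. The gene rpl7l1, whose human counterpart is a factor of large-subunit assembly, had 239 CPM in npsn+ against 493 CPM in myb+ cells of DP 1 and 156 against 357 CPM in DP 2, a log2 fold change of -0.97 ± 0.58. For rps27l, a p53 target in mammals, the values were 95.8 against 323 CPM in DP 1 and 169 against 224 CPM in DP 2, with -0.84 ± 0.67. Next came rps19bp1 at -0.69 ± 1.096. Among the highest were rpl9 at 1.103 ± 1.48 and rpl22l1 at 0.32 ± 0.44. Each of these genes had an adjusted p of 1.0 in the edgeR test.

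In cells with none of the 3 genes, 1 of 79 members fell and 0 rose relative to myb+ cells, against 0.429% of all genes tested called lower, 0.0858% called higher and 0.515% called either way. It was rpl19, at 4785 CPM in none and 8042 CPM in myb+ cells of DP 1, and at 7728 and 9767 CPM in DP 2, with a log2 fold change of -0.68 ± 0.17 (edgeR, adjusted p = 0.0154). This call was lost under the same 6 settings that ended the cdh5+ calls. The member median was -0.26, above the -0.67 of all genes, but their difference was -0.022 in thinned sums. With DESeq2 size factors the member median was 0.09 and that of all genes -0.31, so its sign also depends on the scaling. Among the highest members were rpl9 at 1.59 ± 1.497 and rpl12, of the stalk base, at 0.38 ± 0.25. Lowest besides rpl19 were rps26l at -0.63 ± 0.21 (edgeR, adjusted p = 0.243) and rps19bp1, which had 0 of 453060 counts in none cells of DP 1 (3 counts would be 6.62 CPM) against 131 CPM in myb+ cells. In DP 2, rps19bp1 had 62.6 CPM in none and 106 CPM in myb+ cells.

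**Figure D4:**
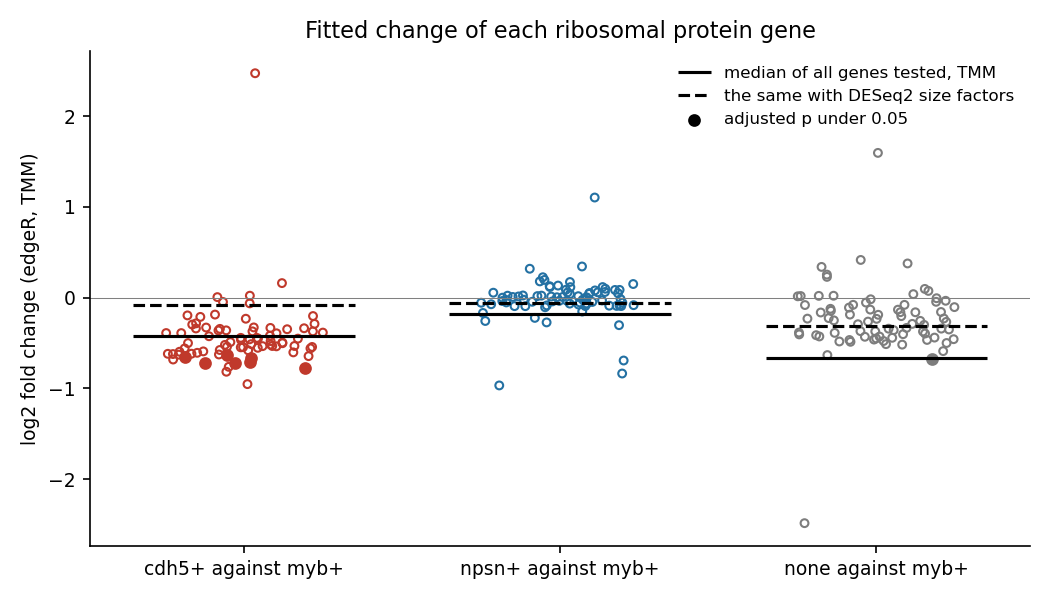
Fitted log2 fold change of each ribosomal protein gene (vertical axis, edgeR with TMM scaling) in cdh5+, npsn+ and none cells against myb+ cells. Filled points have an adjusted p under 0.05 (7 in cdh5+, 0 in npsn+, 1 in none), solid lines mark the median of all genes tested (-0.42, -0.18 and -0.67) and dashed lines the same median with DESeq2 size factors; the lowest point in none is rps19bp1, whose fitted value rests on 0 counts in DP 1.

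To ask which members left the common course, each gene was also fitted against the summed ribosomal protein counts as library size. In cdh5+ cells 0 of 79 members were called in this edgeR fit, where 0.618% of all genes were. At an unadjusted p under 0.05 there were 4 members, all of them higher, beside 339 of all 5829 genes. In npsn+ cells 0 of 79 were called and 0 had an unadjusted p under 0.05, beside 0.6% of all genes. In none cells 0 of 79 were called, beside 0.36% of all genes. There 7 members had an unadjusted p under 0.05, 5 higher and 2 lower, beside 316 of all 5829 genes. The value of rpl19 was -0.42 ± 0.15 (edgeR, adjusted p = 0.407). Of the genes that fell in cdh5+ cells, rpl35a was here at -0.28 ± 0.19 and rpl39 at -0.23 ± 0.13 (edgeR, adjusted p = 0.868). Composition also differed between the libraries: in myb+ cells, 1 member (rps25) took over 1.5 times as large a share of ribosomal protein counts in DP 2 as in DP 1, and 4 (rpl26, rps27l, rpl7l1 and rps19bp1) a share lower by more than 1.5-fold.

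Paralogues were taken from the symbols, which gave 6 families with 13 genes and 8 pairs. Copies that are near identical may share reads in ways that the counts do not show. Balances below are percentages of the pair's summed counts, and their intervals (exact Clopper-Pearson, 95%) cover counting error only, so they do not test a difference between states.

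The balance of the rpl22 pair depended in part on whether counts were summed or taken cell by cell. In npsn+ cells rpl22l1 made up 41.4% of the pair in DP 1 (interval 39.6 to 43.2) and 48.2% in DP 2 (44.7 to 51.6), against 34.7% (33.8 to 35.6) and 41.1% (39.5 to 42.6) in myb+ cells. The log2 ratio was thus higher in npsn+ cells by 0.41 in both libraries. In cdh5+ cells the share was 30.7% in DP 1 and 27.9% in DP 2, below myb+ cells in both, and in none cells it was 27.6 and 34.0%. Taken as a median over cells, however, rpl22l1 stood at 43.8% in cdh5+ and 33.1% in myb+ cells of DP 1, the opposite order, and at 40.0 and 43.1% in DP 2. The same medians were 35.5% in none cells of DP 1, also above myb+ cells, and 43.1% in none cells of DP 2, level with them. In npsn+ cells they were 40.1 and 50.6%, above myb+ cells in both libraries. In the fit on the ribosomal protein total rpl22l1 was at 0.33 ± 0.46 in npsn+ and -0.46 ± 0.46 in cdh5+ cells, and neither passed.

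For rpl5a and rpl5b, both encoding the 5S RNA-binding protein Rpl5, rpl5a made up 41.2% in DP 1 (interval 39.0 to 43.4) and 41.9% in DP 2 (39.2 to 44.6) in cdh5+ cells. In myb+ cells it made up 32.6% (32.0 to 33.3) and 28.2% (27.3 to 29.1). Medians over cells gave the same order, 42.8 and 40.0% in cdh5+ cells against 36.3 and 30.5% in myb+ cells. Against the ribosomal protein total rpl5a was at 0.65 ± 0.33 in cdh5+ cells, with an unadjusted p of 0.0498 and an adjusted p of 0.844 (edgeR), and rpl5b at -0.05 ± 0.25. In npsn+ cells the libraries went opposite ways, with rpl5a at 38.1% in DP 1 and 25.4% in DP 2.

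Against rpl7, the paralogue rpl7l1 made up 6.53% in DP 1 (interval 5.97 to 7.13) and 3.25% in DP 2 (2.56 to 4.07) in npsn+ cells, and 11.1% (10.8 to 11.5) and 6.02% (5.61 to 6.45) in myb+ cells. The order was the same with npsn at 1000 CPM or more, where the share was 6.38% in DP 1 and 0.638% in DP 2. That DP 2 value came from 4 counts of rpl7l1, in 2 cells of which 1 gave 94.4% of all counts. In cdh5+ cells the libraries disagreed, with 4.61% in DP 1, below myb+ cells, and 7.95% in DP 2, above them. In the fit on the ribosomal protein total rpl7l1 in npsn+ cells was at -0.97 ± 0.59 and did not pass (edgeR, adjusted p = 1.0).

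The rps27 family has 3 genes. In npsn+ cells rps27l made up 2.09% in DP 1 (interval 1.80 to 2.41) and 2.71% in DP 2 (2.15 to 3.36) of its sum with rps27.1, against 5.47% (5.24 to 5.70) and 3.38% (3.09 to 3.69) in myb+ cells. In DP 2, 1 of the 2 cells with npsn at 1000 CPM or more gave 94.4% of their counts. At that threshold rps27l made up 1.88% in DP 1 and 4.32% in DP 2, so that the DP 2 order turned. In none cells its summed share was 10.5% in DP 1 and 2.17% in DP 2, on opposite sides of myb+ cells. Taken as a median over cells, rps27l stood at 1.23% in DP 1 and 1.08% in DP 2 in none cells. These medians lay below those of myb+ cells, 5.12 and 3.91%, in both libraries. In npsn+ cells the medians were 1.03 and 0.50%, also below myb+ cells. The balance of rps27.2 with rps27.1 was 12.0 and 12.9% in npsn+ cells (DP 1 and DP 2) against 12.0 and 13.1% in myb+ cells, and 11.03 and 13.87% with npsn at 1000 CPM or more. In none cells this balance was 14.92% in DP 1 and 16.84% in DP 2, above myb+ cells in both. In cdh5+ cells it was 10.44% in DP 1 and 17.97% in DP 2, on opposite sides of myb+ cells.

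The remaining pairs are those of the stalk and of Rps26. The stalk gene rplp2 made up 38.8% in DP 1 and 40.5% in DP 2 of its sum with rplp2l in npsn+ cells, against 41.6 and 45.9% in myb+ cells. With npsn at 1000 CPM or more, 1 of the 2 DP 2 cells gave 94.4% of their counts. At that threshold rplp2 made up 38.8% in DP 1 and 53.9% in DP 2, so that the DP 2 order turned. In cdh5+ cells it made up 42.6 and 44.4%. For rps26, of the anemia list, the share of its sum with rps26l was 44.3% in DP 1 and 39.2% in DP 2 in none cells, against 38.5 and 33.7% in myb+ cells. In cdh5+ cells it was 44.2% in DP 1 and 33.7% in DP 2, and in npsn+ cells 35.9 and 37.3%. Taken as a median over cells, the rps26 share in DP 1 was 38.9% in none cells, close to the 38.1% of myb+ cells. In DP 2 these medians were 43.6 and 31.9%.

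**Figure D5:**
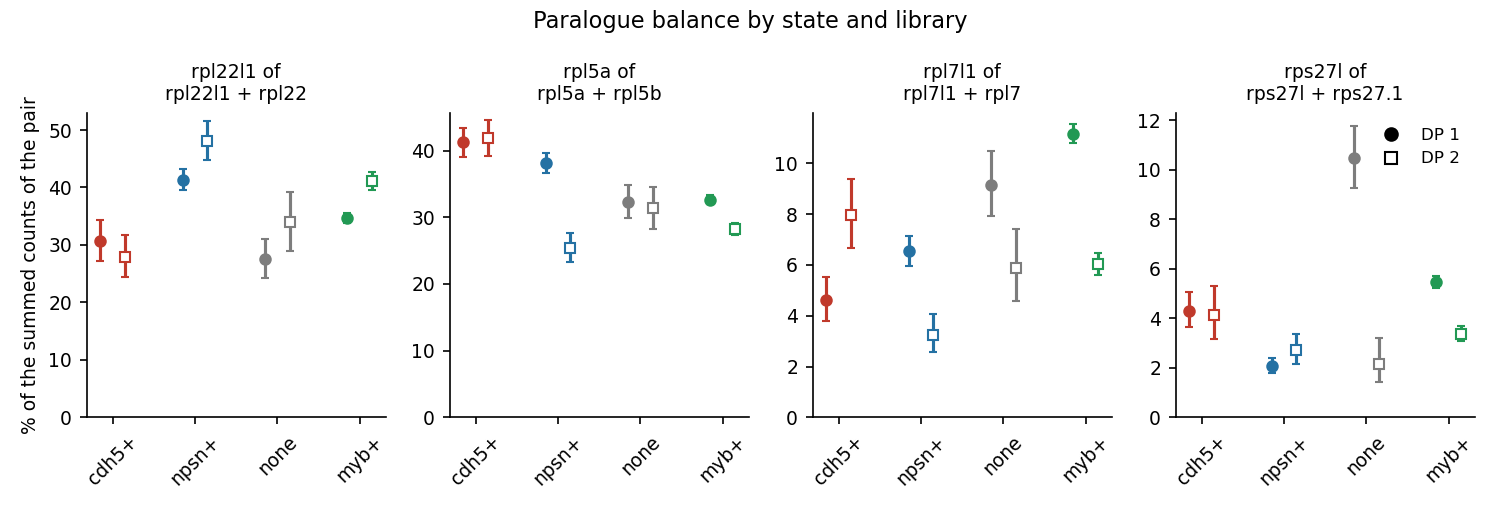
Percentage of a pair's summed counts from rpl22l1, rpl5a, rpl7l1 or rps27l (vertical axes, different scales from 0) in cdh5+, npsn+, none and myb+ cells; filled circles are DP 1, open squares DP 2, and bars are exact 95% intervals for counting error only. In both libraries rpl5a is higher in cdh5+ than in myb+ cells, and rpl7l1 is lower in npsn+ than in myb+ cells.

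Of the 19 members that are orthologues of Diamond-Blackfan anemia genes, 18 were tested. In cdh5+ cells 2 of the 18 fell in the edgeR test, rps7 and rpl35a, where 7 of all 79 members and 0.583% of all genes tested were called lower. At an unadjusted p under 0.05 there were 12, beside 46 of all 79 members and 440 of all 5829 genes, and DESeq2 called 0. The 18 had a median log2 fold change of -0.51, with 17 negative values, beside -0.49 for all members. In npsn+ cells 0 passed the edgeR test (0 at unadjusted p under 0.05, 0 with DESeq2) and the median was 0.0024. In none cells 0 passed (0 with DESeq2) and the median was -0.23. There 7 of the 18 had an unadjusted p under 0.05, beside 23 of all 79 members and 412 of all 5829 genes. The gene of the first anemia locus found, rps19, had 5275 CPM in cdh5+ and 6188 CPM in myb+ cells of DP 1, and 7154 and 9047 CPM in DP 2, with a log2 fold change of -0.56 ± 0.17 and adjusted p = 0.111 (edgeR). The Mdm2-binding rpl11 was at -0.62 ± 0.19 (edgeR, adjusted p = 0.0832). Others of the list, among them rps10, rps24, rps26, rps28, rps29, rpl15, rpl18 and rpl35, did not pass. The anemia gene rpl26 was too low to test, with 0 counts in cdh5+ and 14.6 CPM in myb+ cells of DP 1, and 69.2 CPM in cdh5+ (21 counts) and 1.9 CPM in myb+ cells (4 counts) of DP 2.

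Genes around the ribosome were described from lists of the same pathway. Of all 5829 genes tested by edgeR, 440 had an unadjusted p under 0.05 in cdh5+, 171 in npsn+ and 412 in none cells. The 6 ribosome-associated genes found, such as rpsa, rack1 and tpt1, which share the translational control of ribosomal protein messages, had a share that went with that of the members over cells, with a Spearman coefficient of 0.88 in DP 1 and 0.93 in DP 2. In cdh5+, npsn+ and none cells 0 of the 6 were called by edgeR or DESeq2 (5, 0 and 2 at unadjusted p under 0.05 in edgeR), and their median log2 fold changes were -0.59, -0.02 and -0.28, beside -0.49, -0.02 and -0.26 for the members. In cdh5+ cells rpsa, which encodes another small-subunit protein outside the symbol rule, was at -0.60 ± 0.18 (edgeR, adjusted p = 0.0832). For translation factors the coefficient was 0.27 in both libraries, and 0 of 22 tested were called in cdh5+, npsn+ or none cells by edgeR or DESeq2 (3, 0 and 2 at unadjusted p under 0.05 in edgeR).

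For ribosome biogenesis genes, whose products make and modify ribosomal RNA and assemble subunits, the coefficient over cells was -0.33 in DP 1 and -0.17 in DP 2. Of 24 tested, 0 were called in cdh5+, npsn+ or none cells by edgeR or DESeq2 (2, 4 and 1 at unadjusted p under 0.05 in edgeR). Their median in npsn+ cells was -0.72, with 23 of 24 values negative, where the median of all genes was -0.18. In cdh5+ cells it was -0.67, with 21 of 24 negative, beside -0.42 for all genes. In none cells it was -0.06, with 15 of 24 negative, beside -0.67 for all genes. The nucleolar genes nop56 and npm1a were at -0.88 ± 0.35 and -0.87 ± 0.35 in npsn+ cells (edgeR, adjusted p = 0.767 and 0.861). In cdh5+ cells they were at -0.47 ± 0.35 and -0.76 ± 0.35. Of 73 mitochondrial ribosomal protein genes, which serve the organelle's own ribosome, 0 were called by edgeR or DESeq2 (12, 0 and 6 at unadjusted p under 0.05 in edgeR). Their medians were -1.41 in cdh5+, -0.38 in npsn+ and -0.61 in none cells. The medians of all genes were -0.42, -0.18 and -0.67. Of 8 myc and p53 axis genes tested, 0 were called by edgeR or DESeq2 (0, 1 and 1 at unadjusted p under 0.05 in edgeR). Among 13 heat shock and immediate early genes, fosab and junbb, both encoding AP-1 subunits, fell in npsn+ cells by 1.09 ± 0.29 and 1.40 ± 0.32 (edgeR, adjusted p = 0.0298 and 0.00308), where 0.635% of all genes tested were called. With DESeq2 the call of junbb held (adjusted p = 0.00815) and that of fosab did not (0.179). At an unadjusted p under 0.05 in edgeR there were 7 of the 13 in cdh5+ and 3 in none cells, all higher. In npsn+ cells there were 6, all lower. All genes gave 440, 412 and 171 of 5829 in these 3 comparisons. In cdh5+ and none cells edgeR called 0 of the 13. DESeq2 called 2 and 1 there, beside 42 and 22 of all 5829 genes. Of the 13 mitochondrially encoded genes, 6 rose in npsn+ cells (5 with DESeq2) and 5 in none cells (4 with DESeq2), where edgeR called 0.635% and 0.515% of all genes tested, and 0 passed in cdh5+ cells (0 at unadjusted p under 0.05 in edgeR, 0 with DESeq2).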

How the data were processed

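Counts as deposited by the authors, whole numbers for each gene in each cell, were used without change. Per the submitters' processing notes, which cover several assays without saying which tool served which, Trimmomatic 0.36, HISAT2 2.1.0 and the build GRCz11 were used. How reads were counted, with or without strand or molecular identifiers, is not given in the sources used here. The members, states and lists were chosen with earlier results of these data known.

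The table holds 93 cells, of which 5 with fewer than 500 genes were removed. Listed SP cells were not analysed here, and no doublet caller was run on singly sorted cells. Symbols were used as deposited, and 79 of the 80 matched the RefSeq gene table.

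Counts were summed per library and state and tested with edgeR 4.0.16 (R 4.3.3): TMM, filterByExpr by state, quasi-likelihood test, two-sided, all 4 states in one fit, library as a block, 3 residual degrees of freedom, cdh5, npsn and myb left out. The call threshold was an adjusted p of 0.05 after Benjamini and Hochberg. SEs were obtained from the fold change and F, as the size of the log2 value over the root of F. The library pairs the sums by construction. A second fit used summed ribosomal protein counts as library size. Alternatives were other state thresholds, sums thinned to 20217 counts per cell (9 shallower cells left out), other filters, DESeq2 1.42.0, and leaving out the deepest cell or a library. Data were also simulated with dispersion held fixed and known changes given to genes above a minimum summed count, not to the members as such. There, 4-fold changes were recovered in 78.6% (cdh5+), 94% (npsn+) and 82.8% (none) of changed genes, and 2-fold changes in 15%, 29.6% and 15.2%.

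The genes named are all called members, the 3 highest and 3 lowest of each comparison, paralogue partners, Diamond-Blackfan anemia genes and the 3 with the most counts. Other genes come from the pathway and marker lists. Some genes that this rule names are not reported here.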

Additional observations from a re-analysis of the deposited data

How the results depend on the processing

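The share differences from myb+ cells were -2.61 to -4.44 points for cdh5+, -3.95 to -5.11 for npsn+ and 3.18 to -5.60 for none cells with either library left out. For cdh5+ cells the mean was -8.06 where any count set the state, which left 1 cdh5+ cell in DP 1, and -6.92 with states set on thinned counts. For npsn+ cells it was 0.95 where any count set the state, which left 4 myb+ cells in DP 1 and gave opposite directions in the libraries. The npsn+ mean was -7.31 with npsn at 1000 CPM, -3.39 from summed counts and -3.60 without mitochondrial counts. Of members, 7 of 79 were called in cdh5+ cells (beside 41 of all 5829 genes) and 29 of 80 with no filter on low counts (beside 62 of all 15257 genes). None was called with no replicate block (library not in the model), thinned sums, no deepest cell, DESeq2 size factors, DESeq2 or npsn at 1000 CPM. The 1 call in none cells became 0 under these last 6 settings. The members' median relative to all genes turned to 0.57 (no filter) and 0.21 (no deepest cell) in cdh5+ cells, to -0.31 (any count) and -0.019 (thinned sums) in npsn+ cells and to -0.022 (thinned sums) in none cells. With 1 library left out no residual degrees of freedom remain, so no calls were counted, and with any count as the threshold the cdh5+ and none fits could not be made. The cause of these changes was not tested. Simulated 2-fold changes were mostly missed in all 3 comparisons (15% recovered in cdh5+, 29.6% in npsn+ and 15.2% in none cells). The simulation held dispersion fixed and did not vary depth, so the part of depth in these misses was not tested. It changed genes above a minimum summed count, not the members as such, so these rates do not give the recovery for the members.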
